A study of Mus musculus with 6 samples.

Results

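Matrix metalloproteinases and their tissue inhibitors, the TIMPs, were examined in myeloid cells of infarcted neonatal and juvenile mouse hearts. The family was taken by gene symbol as 7 metalloproteinases (Mmp8, Mmp9, Mmp12, Mmp13, Mmp14, Mmp19 and Mmp25) and 3 inhibitors (Timp1, Timp2 and Timp3). These are 10 of the 19057 genes with a symbol on the array, and 17 of its 45281 probes carried 1 of the 10 symbols. The cells were CD11b-positive and Ly6G-negative, a gate for macrophages and monocytes that is meant to leave neutrophils out. They came from hearts of ICR mice, an outbred strain, with both sexes mixed, collected 3 days after ligation of the left anterior descending coronary artery. In the P1 group the infarct was made on postnatal day 1 and in the P14 group on postnatal day 14, with 3 arrays for each age. All 6 samples were from infarcted hearts, so the comparison is between ages. The labels do not say whether an array stands for its own animal or pool, so the p-values rest on variation among these arrays, part of which may be technical.

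Metalloproteinases are zinc-dependent enzymes that cut collagens, elastin and other matrix proteins outside the cell. Most are secreted as inactive precursors, and some are anchored in the plasma membrane. TIMPs bind the active site of the mature enzymes and block it, and some also bind particular precursors. In an infarct, macrophages and fibroblasts make both sides of this system while dead tissue is removed and a scar is laid down.

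Transcripts of the family moved in both directions between the ages. Relative to P14, cells of P1 hearts held more Mmp9, a gelatinase, and more Timp2, the inhibitor that binds Mmp14. They held less Mmp13, a collagenase, less Mmp14, a membrane-anchored collagenase, and less Mmp25, another membrane-anchored member. Of the 10 genes, 9 were bright enough to be tested, and an adjusted p under 0.05 was reached by 2 that rose in P1 and 3 that fell. Of these 3, Mmp25 was read near the detection floor of 126, with 1 of 3 P1 arrays above it. It no longer passed without any 1 of 5 arrays, or with no filter on dim probes. Over all 10507 genes tested, 20.0% were called, 10.4% as higher and 9.62% as lower. The age groups did not overlap in 5 of the 9 genes, Mmp25 among them, against 38.5% of all genes tested. The median log2 fold change of the 9 was -0.19, against 0.01 for all genes, and their median absolute change was 0.41 against 0.14. The 10 genes were chosen with earlier results of these data known, so these medians describe the chosen genes only. Among 5 tested metalloproteinases and inhibitors outside the 10, 1 was called and the median log2 fold change was -0.03. Log2 fold changes are P1 minus P14 throughout, and errors on them are limma's standard errors (SE) with n = 3 arrays per group.

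**Figure D1:**
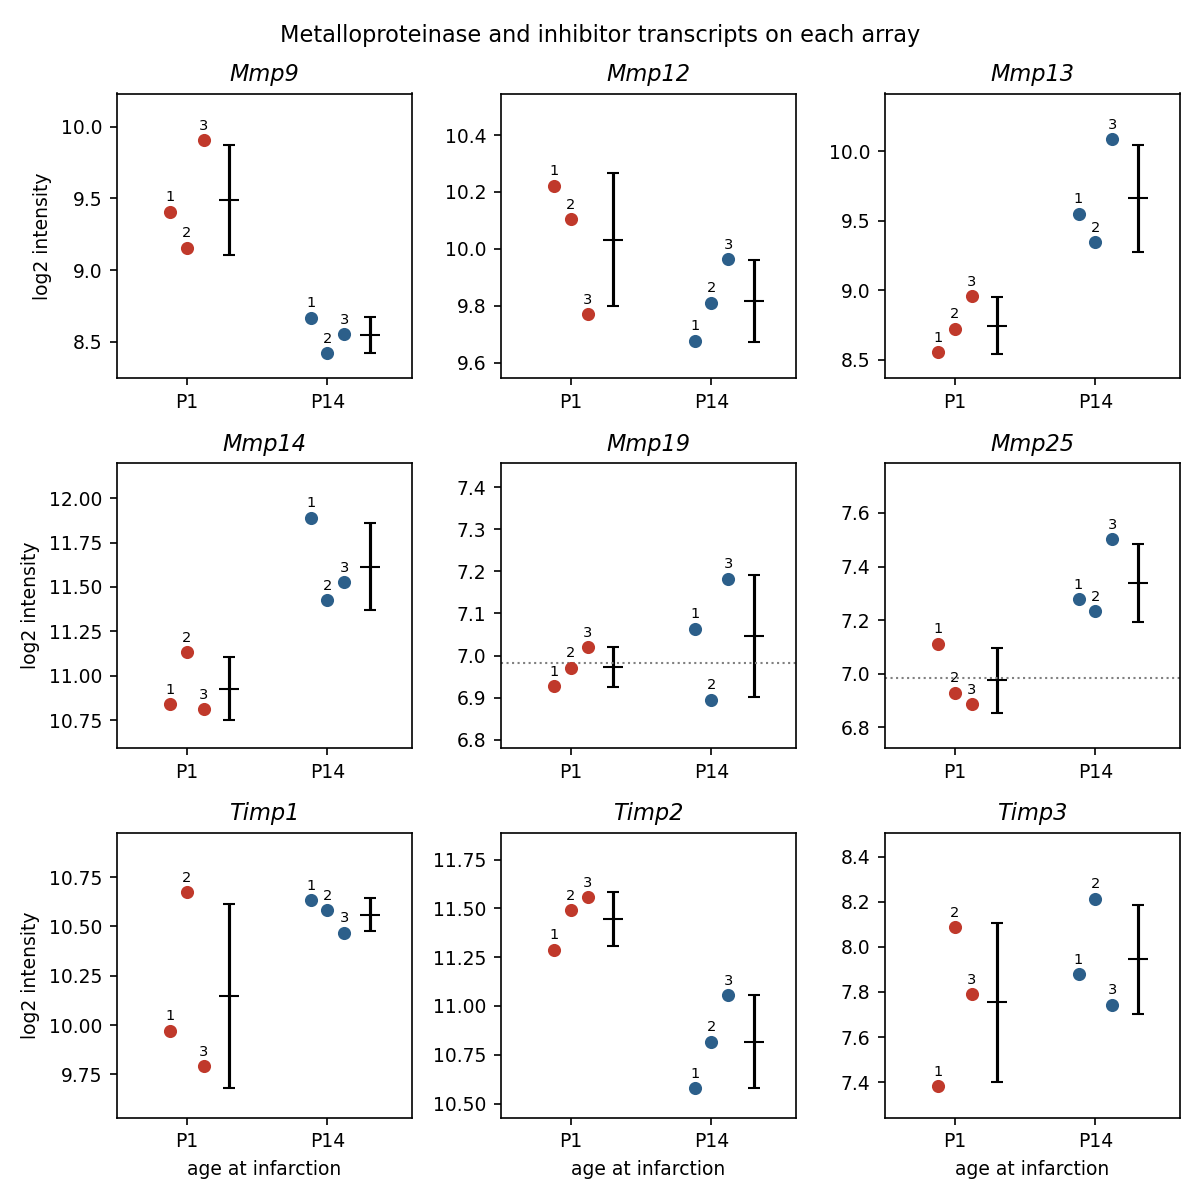
Log2 intensity (vertical axis) of the tested probe of 9 genes on each array of P1 (red) and P14 (blue), with replicate numbers above the points, the mean and SD of 3 arrays as black bars beside them, and the detection floor as a dotted line where it lies in range. Mmp9 and Timp2 lay higher on every P1 array than on any P14 array, and Mmp13, Mmp14 and Mmp25 lay lower.

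Of the 4 called genes for which RefSeq gave a promoter window, 3 are printed (GRCm38.p6, from 250 bases before to 50 bases after the annotated start), because metalloproteinase promoters are known for AP-1 and PEA3-type ETS sites next to a TATA box. Such windows were matched by symbol for 8 of the 10 genes, all but Mmp9 and Mmp19. They numbered 9 because Mmp12 had a pair of start sites. Capitals mark matches to 3 motifs. The AP-1 motif was searched as TGANTCA on both strands. For the PEA3 motif the letters AGGAAG were searched, also on both strands. A TATA box was taken as TATAAA on the strand of the gene. No match of one motif overlapped a match of another. The lower genes Mmp13 (chr9:7272264-7272563, plus strand) and Mmp14 (chr14:54431348-54431647, plus strand), the higher gene Timp2 (chr11:118355362-118355661, minus strand), and for comparison the downstream start of Mmp12 (chr9:7347124-7347423, plus strand), which did not pass the test, read as follows.
Mmp13: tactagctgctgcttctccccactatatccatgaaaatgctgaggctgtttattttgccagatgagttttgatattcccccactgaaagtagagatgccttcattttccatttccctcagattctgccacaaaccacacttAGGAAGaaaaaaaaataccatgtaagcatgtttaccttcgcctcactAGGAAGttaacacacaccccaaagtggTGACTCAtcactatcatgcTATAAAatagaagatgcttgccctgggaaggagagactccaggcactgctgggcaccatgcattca
Mmp14: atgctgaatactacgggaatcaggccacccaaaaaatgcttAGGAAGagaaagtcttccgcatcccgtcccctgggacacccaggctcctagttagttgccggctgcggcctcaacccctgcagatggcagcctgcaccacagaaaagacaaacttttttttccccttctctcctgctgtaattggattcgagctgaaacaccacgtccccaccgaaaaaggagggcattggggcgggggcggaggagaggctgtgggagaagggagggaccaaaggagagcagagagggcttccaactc
Timp2: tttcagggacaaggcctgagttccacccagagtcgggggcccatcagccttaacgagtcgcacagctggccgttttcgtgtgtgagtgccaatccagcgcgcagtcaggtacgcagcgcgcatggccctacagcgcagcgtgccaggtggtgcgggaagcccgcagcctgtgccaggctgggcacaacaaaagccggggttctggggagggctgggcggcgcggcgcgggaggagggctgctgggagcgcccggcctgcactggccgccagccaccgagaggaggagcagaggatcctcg
Mmp12: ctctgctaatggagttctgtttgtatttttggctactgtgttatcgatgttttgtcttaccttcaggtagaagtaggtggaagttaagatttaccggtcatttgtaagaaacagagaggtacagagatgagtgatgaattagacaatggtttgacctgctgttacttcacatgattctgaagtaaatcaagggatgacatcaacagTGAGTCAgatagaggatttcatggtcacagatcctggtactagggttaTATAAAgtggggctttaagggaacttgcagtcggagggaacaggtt

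The Mmp13 window held 1 AP-1 match, 35 bases upstream of the start, a TATA box match 16 bases upstream and PEA3 matches 62 and 109 bases upstream. The Mmp12 window also held 1 AP-1 match, 44 bases upstream. Its 1 TATA box match lay at position 5, downstream of the annotated start. Mmp14 held 1 PEA3 match, 209 bases upstream, and the Timp2 window held no match to any of the 3 motifs. Among the windows not printed, Mmp25 had 2 PEA3 matches, Timp1 had 3, and Mmp8, Timp3 and the upstream start of Mmp12 had 1 each. Of all 32851 windows of this length, 7.81% held an AP-1 match, 35.4% a PEA3 match and 8.32% a TATA box match. The called genes with a window therefore did not all share a match. Mmp13, Mmp14 and Mmp25, all lower in P1, each held a PEA3 match, and Timp2 held none. Mmp9 had no window, and a match is a description of letters only.

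Mmp9, which encodes gelatinase B, an enzyme that cuts denatured collagen and basement membrane collagen, had the largest difference of the family. Its probe read intensities of 678.1, 570.3 and 959.6 on P1 replicates 1, 2 and 3, and of 406.4, 342.3 and 376 on the P14 replicates in the same order. Every P1 array lay above every P14 array, and P1 replicate 3 was the highest. Mmp9 rose 1.92-fold in P1 (0.94 ± 0.175 on the log2 scale, adjusted p = 0.0107), and 1.04% of genes tested had a larger absolute change. The call held without any single array, with log2 fold changes from 0.73 to 1.11 and adjusted p from 0.0102 to 0.0418.

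Macrophages make Mmp9, and neutrophils store it in their granules. Beside it, 9 of the 11 tested neutrophil markers were higher in P1 and 1, Retnlg, was 3.11-fold lower (adjusted p = 0.00151). The summed intensity of these 11 markers was 16317 to 23403 on P1 arrays and 9261 to 13101 on P14 arrays. S100a8 was the largest term of the sum on every array, at 9789.5 to 14401.3 in P1 and 3545.1 to 6801.3 in P14. S100a9, a calcium-binding protein of neutrophils and monocytes, rose 4.03-fold in P1 (adjusted p = 0.00180), and Camp, a granule peptide gene, was 3.01-fold higher (adjusted p = 0.0207). S100a8, the partner of S100a9, rose by 1.32 ± 0.233 on the log2 scale (adjusted p = 0.00873). Averaged over the list, the log2 deviation from the mean of 6 arrays was 0.38, 0.24 and 0.75 on P1 replicates 1, 2 and 3, and -0.38, -0.46 and -0.52 on the P14 replicates. The list and Mmp9 were both highest on P1 replicate 3. The lowest P1 array was replicate 2 for Mmp9 and for the mean deviation but replicate 1 for the summed intensity, and on the P14 arrays the list did not follow the order of Mmp9. Cxcr2, a neutrophil chemokine receptor, did not pass the detection filter, and Ly6g was not analysed here. The part of neutrophil transcripts in the Mmp9 difference was not tested. In bulk samples, fewer cells of a type and less RNA per cell cannot be told apart.

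The other family members known from neutrophils, Mmp8 and Mmp25, were read at or near the detection floor. Mmp8, the collagenase of neutrophil granules, had 1 probe, which read 114.1 to 122.1 on P1 arrays and 115.2 to 124.8 on P14 arrays. These values lie below the detection floor of 126 on all 6 arrays, so Mmp8 was not tested. Mmp25, or leukolysin, a lipid-anchored enzyme known from neutrophils, read 138.4, 121.9 and 118.3 on P1 replicates 1, 2 and 3. On the P14 replicates it read 155.3, 150.4 and 181.4. It was close to the floor in P1, where 1 of 3 arrays exceeded it, and above it on every P14 array, with no overlap between the ages. The transcript was 1.29-fold lower in P1 (-0.36 ± 0.0974, adjusted p = 0.0363). This call ended without any 1 of 5 arrays, with adjusted p up to 0.119 without P1 replicate 3, and also with no filter on dim probes (adjusted p = 0.0528). After normexp background correction the log2 fold change was -0.56 (adjusted p = 0.0212).

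Mmp13 encodes collagenase-3, which cuts the triple helix of fibrillar collagens. Its brightest probe read 375.7, 422.5 and 496.9 on P1 replicates 1, 2 and 3, and 748.4, 651 and 1087.6 on the P14 replicates. The highest P1 array stayed below the lowest P14 array, and P14 replicate 3 stood above the rest. The transcript was 1.89-fold lower in P1 (-0.92 ± 0.187, adjusted p = 0.0147), and 1.11% of genes had a larger absolute change. The call held without any single array (log2 fold changes from -1.07 to -0.70).

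The 3 probes annotated to Mmp13 did not move together. A dimmer one read 126.7 to 145.6 in P1 and 126.6 to 149.3 in P14, with a log2 difference of -0.06 ± 0.0898 (adjusted p = 0.702 in the fit over 19107 probes, of which 16.5% were called). The third stayed around the floor, at 122.3 to 125.8 in P1 and 114.3 to 137.2 in P14, and was not tested. Averaging the 2 tested probes gave -0.49 (adjusted p = 0.0405), so the size of the Mmp13 difference rests on the bright probe.

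Mmp14 is a transmembrane collagenase of the cell surface that also activates the precursor of the gelatinase Mmp2, with Timp2 as the bridge between both enzymes. Its main probe read 1833.1, 2243.7 and 1795.1 on P1 replicates 1, 2 and 3. On the P14 replicates it read 3796.5, 2748.8 and 2953.4, so that all P14 arrays lay above all P1 arrays. The transcript was 1.61-fold lower in P1 (-0.69 ± 0.137, adjusted p = 0.0137). Without P1 replicate 3 the adjusted p was 0.0517 at a log2 fold change of -0.63. The other probe of Mmp14 exceeded the floor only on P14 replicate 3 (132.1) and was not tested.

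Monocyte markers were given beside Mmp13 and Mmp14 because newly arrived monocytes also make matrix enzymes. Of 6 tested, 3 were lower and 1 was higher in P1, with summed intensities of 20307 to 22100 in P1 and 14622 to 24512 in P14. The largest terms of this sum on every array were Fn1, which was not called, and F13a1, the gene called higher. The median log2 fold change of the 6 markers was -0.65. Their mean log2 deviation was -0.28, -0.05 and -0.37 on P1 replicates 1, 2 and 3, and 0.57, 0.32 and -0.20 on the P14 replicates. P14 replicate 1, the array with the highest Mmp14, was highest by both measures. P14 replicate 3, the array with the highest Mmp13, was lowest by the sum but lay above P1 replicates 1 and 3 by the mean deviation. The part of monocyte transcripts in these differences was not tested.

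Mmp12, the macrophage elastase, was bright at both ages and did not pass the test. It read 1194.6, 1100.5 and 872.8 on P1 replicates 1, 2 and 3, and 818.3, 898 and 997.8 on the P14 replicates. The groups overlapped, since P1 replicate 3 lay below 2 of the P14 arrays. The log2 fold change was 0.22 ± 0.127 with a 95% interval from -0.08 to 0.51 (adjusted p = 0.280). Mmp19, a secreted enzyme that acts on basement membrane proteins, lay at the floor, at 121.7 to 129.8 in P1 and 119 to 145.3 in P14. Its log2 fold change was -0.07 ± 0.0861 with a 95% interval from -0.27 to 0.12 (adjusted p = 0.604). A dimmer Mmp19 probe was not tested.

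**Figure D2:**
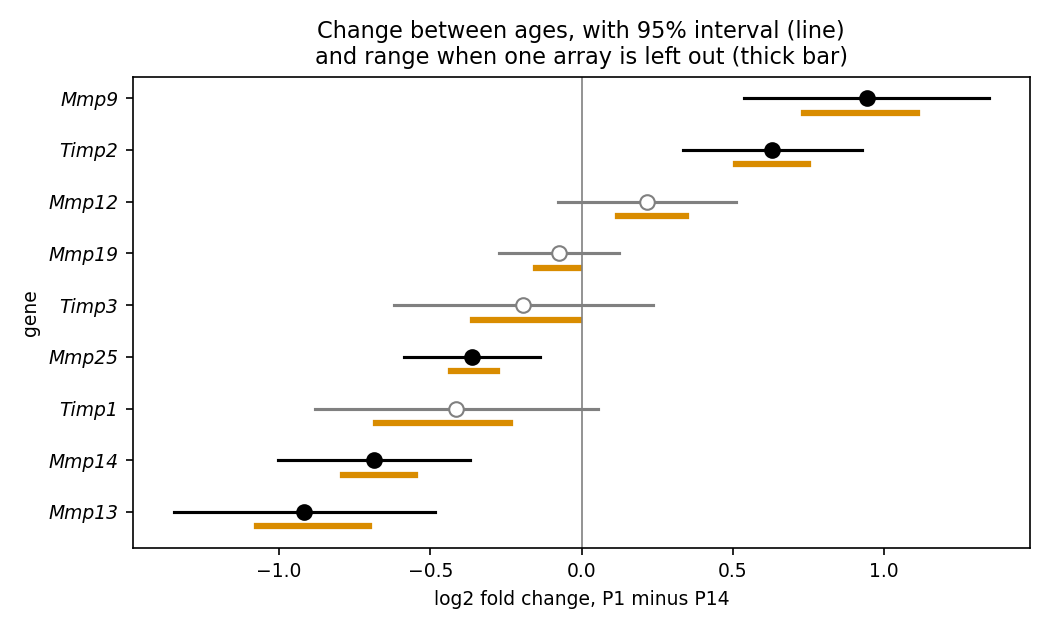
Log2 fold change of each tested gene (point) with its 95% interval (line) and, as a thick orange bar, the range of the estimate when each array is left out in turn. Filled points passed an adjusted p of 0.05. Mmp9 (0.94) and Mmp13 (-0.92) lie at opposite ends, and no bar crosses 0.

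Among the inhibitors, Timp2 rose in P1. Timp2 blocks most metalloproteinases, Mmp14 included. Its probe read 2500.8, 2879.3 and 3014.2 on P1 replicates 1, 2 and 3, and 1527.4, 1802.8 and 2127.3 on the P14 replicates. The ages did not overlap. The transcript was 1.55-fold higher in P1 (0.63 ± 0.128, adjusted p = 0.0145), with log2 fold changes from 0.51 to 0.75 without single arrays. Without P1 replicate 3 the adjusted p was 0.0549.

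Timp1, an inducible inhibitor that also binds the precursor of Mmp9, was split within P1. Its brighter probe read 1003.7, 1633.8 and 887.4 on P1 replicates 1, 2 and 3, and 1586.7, 1532 and 1416.3 on the P14 replicates. P1 replicate 2 lay above every P14 array, while P1 replicates 1 and 3 lay below all of them. The log2 fold change was -0.41 ± 0.203 with a 95% interval from -0.88 to 0.05 (adjusted p = 0.192), and the other probe gave -0.43 ± 0.199 (adjusted p = 0.181). Without P1 replicate 2 the estimate was -0.68 and the adjusted p 0.00974, while without P1 replicate 3 they were -0.24 and 0.480. P1 replicate 2 was also the array with the highest summed intensity of fibroblast markers (3926, against 2485 and 3187 on P1 replicates 1 and 3 and 2463 to 2721 on P14 arrays) and of cardiomyocyte markers (9656, against 4185 and 8711 on the other P1 arrays and 1951 to 2188 on P14 arrays). Fibroblasts also make Timp1, and the part of their transcripts in its level was not tested.

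Timp3, the inhibitor that stays bound to the matrix and also blocks some ADAM enzymes, did not pass the test. Its brightest probe read 167, 271.8 and 221.5 on P1 replicates 1, 2 and 3, and 235.6, 297 and 214.4 on the P14 replicates, with the ages overlapping. The log2 fold change was -0.19 ± 0.185 with a 95% interval from -0.62 to 0.23 (adjusted p = 0.523). The other 2 probes of Timp3 exceeded the floor on 1 array at most and were not tested.

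Of the fibroblast markers, 2 of 7 tested were higher in P1, among them Col1a1, a chain of type I collagen (2.76-fold, adjusted p = 0.00442), and none was lower. Col1a2, the other chain of type I collagen, read 132.4 to 154.7 over all arrays and was not called (0.12 ± 0.0669, adjusted p = 0.246). Col3a1 was not called either (-0.05 ± 0.0762, adjusted p = 0.689). The median log2 fold change of the 7 was 0.14. Dcn, the largest term of their summed intensity on every array, was not called (0.14 ± 0.184, adjusted p = 0.654). Postn did not pass the detection filter. Of the cardiomyocyte markers, 5 of 6 tested were higher in P1 and none was lower. None of 5 endothelial markers and none of 2 tested dendritic cell markers was called. The defining markers of the labelled cells were detected on every array. Csf1r, the macrophage growth factor receptor, read 3428.1 to 4204.8 in P1 and 1957.7 to 2231.9 in P14 (1.77-fold higher in P1, adjusted p = 0.00237). Itgam, which encodes CD11b, read 305.3 to 410.2 in P1 and 335.7 to 456.1 in P14, and its change of -0.23 ± 0.146 on the log2 scale did not pass the test (adjusted p = 0.315). Of 9 tested macrophage markers, 2 were higher and none was lower, and their summed intensity was 50190 to 53347 in P1 and 40496 to 51295 in P14.

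**Figure D3:**
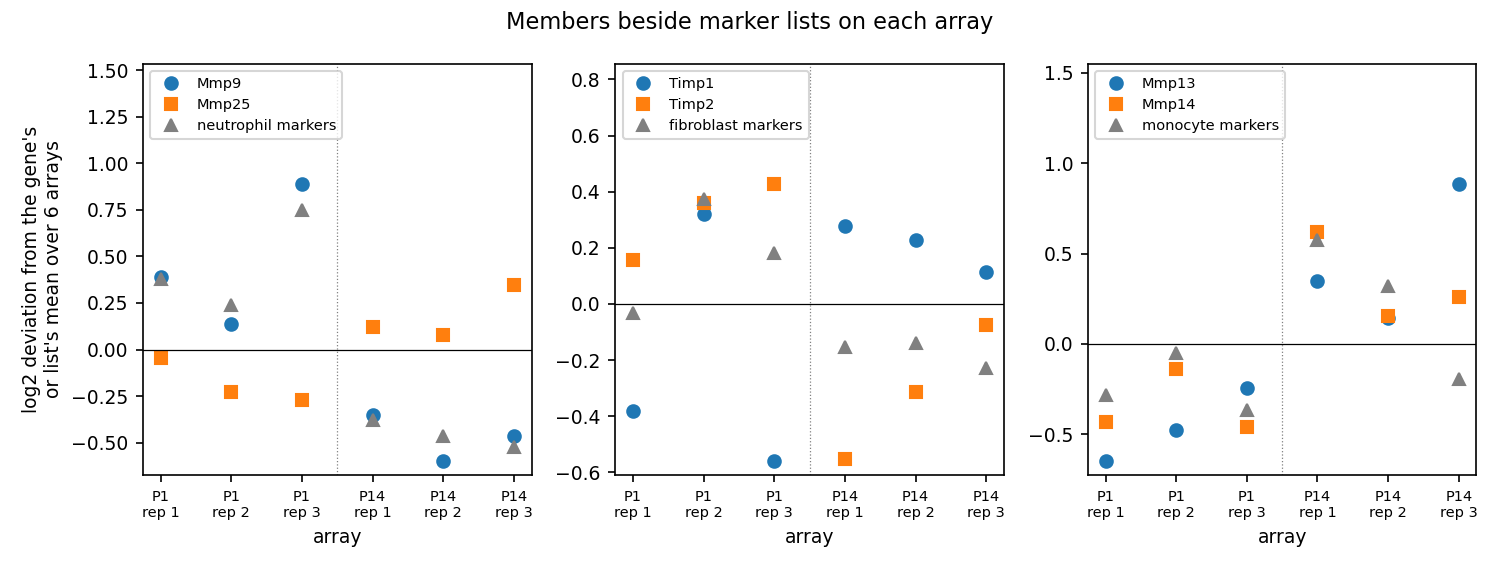
Log2 deviation from the mean over 6 arrays of Mmp9 and Mmp25 beside neutrophil markers, of Timp1 and Timp2 beside fibroblast markers, and of Mmp13 and Mmp14 beside monocyte markers, with arrays on the horizontal axis and P1 left of the dotted line. Mmp9 and the neutrophil list are both highest on P1 replicate 3 but differ in order on the P14 arrays, while Mmp25 lies on the other side of 0 from the list on all 6 arrays.

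The balance between members was followed on each array as the difference of their log2 intensities, for 3 pairs chosen after the values were seen. Mmp14 with Timp2 and Mmp9 with Timp1 set an enzyme against an inhibitor, and Timp2 with Timp1 compares inhibitors. Probes have different brightness, so only the change of such a difference between ages can be read. The Mmp14 less Timp2 difference was -0.45, -0.36 and -0.75 on P1 replicates 1, 2 and 3, and 1.31, 0.61 and 0.47 on the P14 replicates, a 2.49-fold lower ratio in P1. The Mmp9 less Timp1 difference was -0.57, -1.52 and 0.11 in P1 and -1.97, -2.16 and -1.91 in P14, a 2.56-fold higher ratio. The Timp2 less Timp1 difference was 1.32, 0.82 and 1.76 in P1 and -0.06, 0.24 and 0.59 in P14, a 2.06-fold higher ratio. In each pair the ages did not overlap. Since the pairs were chosen for these values, the differences are a description and carry no test.

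The genes with profiles closest to the extremes of the family were found by the root-mean-square difference of mean-centred log2 profiles over the 6 arrays. Closest to Mmp9 were Rps4l (0.13), Rhobtb1 (0.14) and Enc1 (0.16). Closest to Mmp13 were Cbr2 (0.13), Aktip (0.13) and ND5 (0.14).

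The rest of the extracellular proteolysis system was counted in 7 lists with 99 genes, of which 70 were tested. In P1, 13 of them were higher and 11 lower, with a median log2 fold change of 0.11 against 0.01 for all genes. Over all genes tested, 10.4% were called higher and 9.62% lower, and these shares stand beside the counts of each list below. Among metalloproteinases and inhibitors outside the family described above, 5 of 17 were tested and 1 was called. Mmp2, gelatinase A, the enzyme that Mmp14 and Timp2 activate together, read 318.9, 471.7 and 406.8 on P1 replicates 1, 2 and 3, and 265.3, 280.4 and 246.4 on the P14 replicates. It was 1.49-fold higher in P1 (0.58 ± 0.137, adjusted p = 0.0236), on non-overlapping arrays. The call ended without any 1 of 5 arrays, with adjusted p up to 0.0778. On the P1 arrays Mmp2 had the same order as the summed fibroblast and cardiomyocyte markers given above, with replicate 2 highest and replicate 1 lowest, and the part of these cells was not tested. Mmp2 and Timp2 were higher in P1 where Mmp14 was lower.

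**Figure D4:**
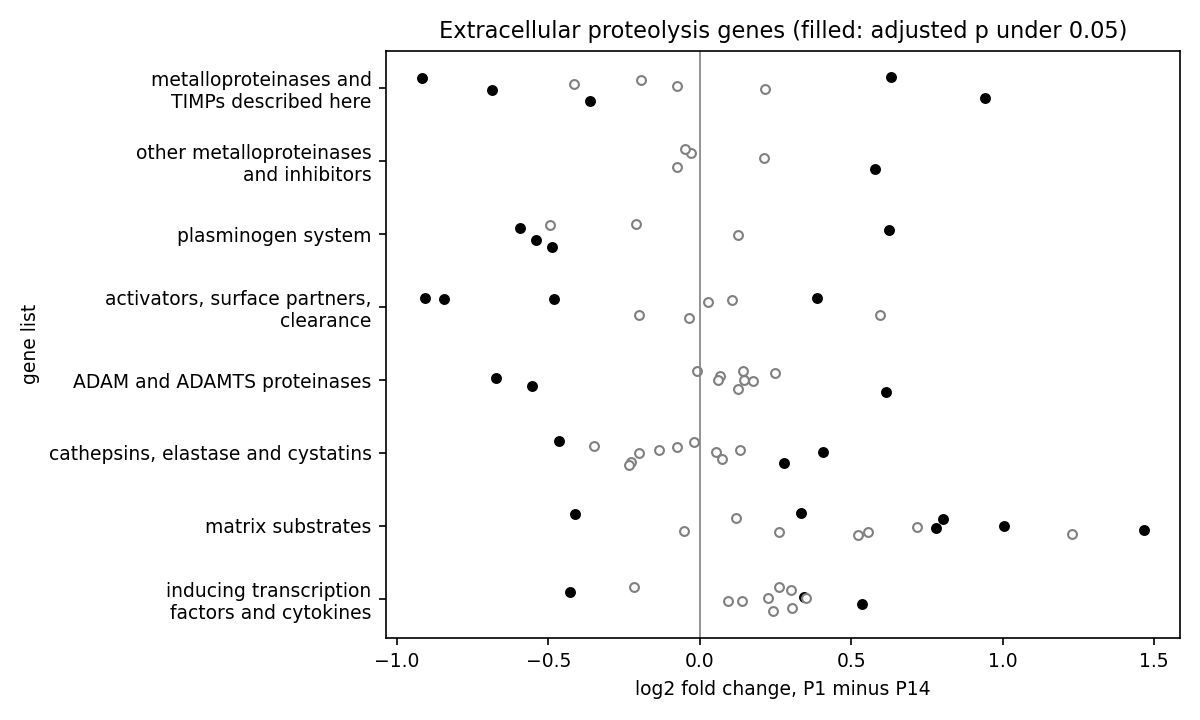
Log2 fold change (horizontal axis, P1 minus P14) of every tested gene of the family and of the 7 other proteolysis lists (rows), filled where the adjusted p was under 0.05, with small vertical offsets for legibility only. Called genes lie on both sides of 0 in the family and in every list except the other metalloproteinases and inhibitors, where Mmp2 alone was called.

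In the plasminogen system, whose product plasmin activates several metalloproteinase precursors, 3 of 7 tested genes were lower in P1 and 1 was higher. Plau, the urokinase-type activator, was 1.45-fold lower (adjusted p = 0.0281; up to 0.0879 without single arrays and 0.0523 with no filter). Its receptor gene Plaur was 1.40-fold lower (adjusted p = 0.0119), and S100a10, a plasminogen-binding surface protein, was 1.51-fold lower (adjusted p = 0.00594). Plgrkt, a plasminogen receptor, was 1.54-fold higher (adjusted p = 0.00563).

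Of 9 tested genes for activation, surface docking and clearance of metalloproteinases, 3 were lower and 1 was higher in P1. Lrp1, an endocytic receptor that clears several metalloproteinases, was 1.80-fold lower (-0.84 ± 0.105, adjusted p = 0.00282). Thbs1, thrombospondin 1, was 1.87-fold lower (-0.91 ± 0.108, adjusted p = 0.00258). Cd44, a hyaluronan receptor that docks Mmp9 and Mmp14 at the surface, was 1.40-fold lower (-0.48 ± 0.0875, adjusted p = 0.00993), and with the mean of its probes the estimate was -0.16 (adjusted p = 0.303). Thbs2, thrombospondin 2, was 1.31-fold higher (adjusted p = 0.0256; up to 0.0902 without single arrays).

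Among 11 tested ADAM and ADAMTS proteinases, relatives that shed surface proteins or cut proteoglycans, 2 were lower and 1 was higher. Adam8, a myeloid sheddase, was 1.59-fold lower in P1 (adjusted p = 0.0118) and Adam9 1.47-fold lower (adjusted p = 0.00533). Adam15 was 1.53-fold higher (adjusted p = 0.00692), but 0.20 on the log2 scale with the mean of its probes (adjusted p = 0.0560). Of 13 cathepsins, elastase and cystatins, 2 were higher and 1 was lower. The 2 higher ones encode neutrophil serine proteases, Elane at 1.33-fold (adjusted p = 0.0213; up to 0.0674 without single arrays) and Ctsg at no less than 1.10-fold (adjusted p = 0.0475; up to 0.133 without single arrays and 0.0540 with no filter). Elane, which read 125.7 to 135 in P14, near the floor of 126, is itself among the 11 neutrophil markers counted above. Ctsg read 132 to 153.3 in P1 and 109.4 to 117.9 in P14, below the floor on every P14 array. It was therefore kept only through its P1 arrays, and its call ended without any 1 of the 6 arrays. Elane and Ctsg were both highest on P1 replicate 2, the P1 array with the lowest mean deviation of the neutrophil list. Ctsc, which encodes the protease that activates them, was 1.38-fold lower (adjusted p = 0.0141), and -0.09 on the log2 scale with the mean of its probes (adjusted p = 0.472).

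Matrix proteins that these enzymes cut included 5 higher and 1 lower gene among 13 tested, with a median log2 fold change of 0.56. Col1a1 had the largest change, at 356.3, 684.3 and 427.4 on P1 replicates 1, 2 and 3 and 167.1 to 175.1 on the P14 arrays. Sparc, a collagen-binding glycoprotein, was 2.01-fold higher (adjusted p = 0.0237), and Hspg2, the basement membrane proteoglycan perlecan, was 1.74-fold higher (adjusted p = 0.0186). The call of Sparc ended without any 1 of 4 arrays (adjusted p up to 0.0699), with no filter (0.0511) and with the mean of its probes, where the log2 fold change was 0.52 (adjusted p = 0.101). The call of Hspg2 ended without either of 2 arrays (adjusted p up to 0.0514). Col1a1 is also on the fibroblast marker list, as are Col1a2 and Col3a1, which were not called. All 3 genes were highest on P1 replicate 2, the array with the highest fibroblast and cardiomyocyte sums, and the part of these cells was not tested. Vcan, the proteoglycan versican, was 1.33-fold lower (adjusted p = 0.0223; up to 0.0771 without single arrays and 0.0886 with the mean of its probes).

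Of 12 tested transcription factors and cytokines that induce metalloproteinases, 2 were higher and 1 was lower. Junb, a subunit of the AP-1 factor, was 1.27-fold higher in P1 (adjusted p = 0.0136; 0.0540 without P1 replicate 3), and Il1a, which encodes interleukin 1 alpha, rose 1.45-fold (adjusted p = 0.0234; up to 0.0821 without single arrays). Osm, the cytokine oncostatin M, was 1.35-fold lower (-0.43 ± 0.0688, adjusted p = 0.00647).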

How the data were processed

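Illumina mouse bead arrays were hybridised with total RNA of the sorted cells. Linear probe intensities of 6 arrays, as deposited by the authors, were used. Their sorted columns agreed to within 0.471%, so the authors had quantile-normalized them, with background left in and no centring. Their software is not stated in the labels used here. A table of scanner signals with 24 columns named by chip position was not used, because no label ties a position to a sample.

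Probes were named through the platform annotation, in which 34885 of 45281 had 1 gene symbol, 18 several and 10378 none. The floor, 126, was the most frequent log2 value plus 3 SD of the mirrored lower values. Probes above it on at least 3 arrays were kept (19107), and a gene was its kept probe with the highest mean. The ages were compared on log2 intensity in limma 3.58.1 (lmFit, eBayes; R 4.3.3) by two-sided tests with group as the only term, adjusted by Benjamini-Hochberg over all genes (10507) or all kept probes. Each array had a median intensity of 121 and 18920 to 18940 probes above the floor. Ages separated on principal component 1 (59.2% of variance), and P14 replicate 3 stood apart on component 2 (15.4%). The fit was checked on simulated data.

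A gene with a group wholly below the floor has its fold given against the floor. Named are all family members and up to 3 called genes per direction and list with the largest change. Also named are 7 marker examples and the 3 nearest profiles of each extreme member. Retnlg, Cxcr2, Postn, Fn1, F13a1, Dcn, Mpo, Ngp, Col1a2 and Col3a1 were named after their values were seen. The members, lists and naming rule were chosen with earlier results of these data known. The alternatives were no filter or a stricter one, the mean of a gene's probes, a trended robust variance, weighted arrays, a replicate block, normexp with an offset of 50, a further cyclic loess, and leaving out each array, with probes kept as chosen over 6 arrays. The number of arrays limits the precision.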

Additional observations from a re-analysis of the deposited data

How the results depend on the processing

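With all arrays kept, 8 alternatives left the family at 2 higher genes, and at 3 lower or, with no filter or with detection on every array required, 2. In those, Mmp25 did not pass the test (adjusted p = 0.0528) or was not tested. Without single arrays the family's higher genes numbered 1 to 2 and its lower genes 1 to 3, while its higher probes numbered 1 to 2 and its lower probes 1 to 4. All 9 tested members kept the sign of their change under every alternative in which they were tested. Mmp9 and Mmp13 kept their calls under all 14. After normexp background correction the log2 fold changes were 1.04 for Mmp9, -1.003 for Mmp13, -0.70 for Mmp14 and 0.64 for Timp2. Without single arrays, the genes called higher over the whole array ranged from 519 to 921 and those called lower from 535 to 893, and the other proteolysis genes from 6 to 15 higher and 9 to 12 lower. Of the 22 named genes of those lists, 9 kept their call throughout, 10 lost it without at least 1 array and 7 under at least 1 setting with all arrays. P1 replicate 3 was the array whose removal ended most calls in the family, leaving only Mmp9 and Mmp13; the cause was not tested.

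The replicate numbers of the titles were shared by both ages. Deviations from group means correlated at 0.136, 0.0676 and 0.123 between same-numbered arrays, and from -0.133 to -0.0162 between the others. Each array correlated best with its own number. Not every pair exceeded 0.1, and the numbers were not taken as pairs in the main fit. Whether they mark pairs was not settled, since no label says so. With the replicate block 1118 genes were higher and 1064 lower, and the family again had 2 higher and 3 lower genes. Among these, the block lowered the SE of Mmp9 (0.175 to 0.133), Mmp13 (0.187 to 0.109) and Timp2 (0.128 to 0.0775). It raised that of Mmp14 (0.137 to 0.140) and Mmp25 (0.0974 to 0.101). The other proteolysis genes then numbered 17 higher and 12 lower, and the family's probes 2 and 2. A chip block was not run, since no label gives the chip position. In the family, signal over background limits Mmp8, Mmp19 and Mmp25, whose probes lay at or near the floor.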
